A study of Arabidopsis thaliana with 28 samples.

Results

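The outermost stretches of the 5 chromosomes of Arabidopsis thaliana were compared between an autotetraploid and its diploid progenitor. The genome was cut into 2385 bins of 50 kb, and an end was the first or the last 30 bins of chromosome 1, 20 bins of chromosome 2, 24 bins of chromosome 3, 19 bins of chromosome 4 and 27 bins of chromosome 5. The rule uses position only, and it gave 10 ends with 240 bins in all. An end is named by its chromosome and side, so that 4 left runs from the first base of chromosome 4 inward. 4XCol-0 is an autotetraploid line (ploidy 4) that was made from the accession Col-0 with colchicine, and Col-0 itself is the diploid wild type (ploidy 2). All 4XCol-0 plants descend from this single line, so a difference between the groups can belong to the line as well as to its ploidy, and these cannot be told apart. Both groups carry the same Columbia genome. Both were grown for 10 days on Murashige and Skoog medium with 16 h of light and 8 h of dark. The study's plant methods state that the aerial parts were then taken, while its ChIP methods and the sample labels name only seedlings. Hi-C, H3K4me3 and H3K27me3 had 2 libraries per genotype, anti-H3 had 1 library per genotype, and the RNA values are 1 pooled column per genotype from 3 replicates.

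Telomeres close the ends of linear chromosomes with a short repeat that is copied by telomerase, which in Arabidopsis reads CCCTAAA on one strand and TTTAGGG on the other. In interphase nuclei of this plant, telomeres are known to gather around the nucleolus, while centromeres lie near the nuclear edge. The short arms of chromosomes 2 and 4 end in the nucleolus organizers, long arrays of ribosomal RNA genes from which the nucleolus forms. These arrays are collapsed in the reference assembly, so 2 left and 4 left begin in the assembly beside an array and not at a telomere.

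The sequence at the tip shows this difference, and 5 of the 10 tips are printed because the contact results turn on them. Each run is the outermost 150 assembled bases of an end on the forward strand of TAIR10.1 (RefSeq), in lower case, with every whole copy of the telomere repeat in capitals. For 2 left and 4 left the assembly begins with 1000 unsequenced bases, and the run starts at position 1001.
2 left: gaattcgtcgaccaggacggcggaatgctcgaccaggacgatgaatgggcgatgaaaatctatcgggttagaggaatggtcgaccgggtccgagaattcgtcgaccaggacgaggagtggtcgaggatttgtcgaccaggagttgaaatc
4 left: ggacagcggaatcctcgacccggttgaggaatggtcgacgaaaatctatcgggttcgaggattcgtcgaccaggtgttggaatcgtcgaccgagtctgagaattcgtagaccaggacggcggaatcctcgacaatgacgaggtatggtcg
1 left: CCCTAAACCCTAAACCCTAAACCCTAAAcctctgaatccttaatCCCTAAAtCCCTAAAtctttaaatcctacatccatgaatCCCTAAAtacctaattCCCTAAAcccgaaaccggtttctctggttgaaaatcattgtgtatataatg
2 right: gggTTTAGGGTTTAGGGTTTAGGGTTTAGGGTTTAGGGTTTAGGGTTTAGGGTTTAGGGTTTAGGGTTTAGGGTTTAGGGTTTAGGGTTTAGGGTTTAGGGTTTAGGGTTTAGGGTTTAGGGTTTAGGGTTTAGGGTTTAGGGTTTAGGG
3 right: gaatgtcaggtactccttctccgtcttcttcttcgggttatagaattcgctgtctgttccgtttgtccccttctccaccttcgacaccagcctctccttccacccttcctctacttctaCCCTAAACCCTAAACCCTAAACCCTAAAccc
Neither tip beside a nucleolus organizer held a copy of the repeat in these bases. The 2 right tip was almost nothing else, with 21 copies, and 1 left held 8. The 3 right tip held 4 copies, in the orientation CCCTAAA and not in the TTTAGGG orientation of 1 right, 2 right, 4 right and 5 right. The other 5 tips, which are not printed, held 1 (5 left) to 9 copies (3 left).

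In other respects the ends were gene-rich arm sequence. They held 13.9 protein-coding genes per bin, against 12.7 in the arm interior (all bins outside ends and pericentromeres) and 2.63 in the pericentromeres. The GC content was 36.9% in ends and 35.7% in the arm interior, and HindIII, the enzyme that cut the chromatin for Hi-C, had 27.02 sites per bin in ends and 26.95 in the arm interior. The telomere repeat occurred 17.6 times per bin in the 10 outermost bins, 6.87 times per bin in the other 230 bins of the ends and 6.75 times per bin in the arm interior. The lowest number of coding genes was at 2 left, with 11.2 per bin, and 4 left had 13.1.

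Hi-C joins pieces of chromatin that lie close in the nucleus and counts the joined pairs. The deposited signal was balanced between bins, and it was scaled so that each library held 10000000 contacts. A value is the mean number of contacts per pair of bins on that scale. The 4XCol-0 libraries held 6153679 and 25961427 recovered contacts, and the Col-0 libraries held 2753780 and 19278810. With 2 libraries per genotype, an exact two-sided permutation test cannot give a p under 0.333, which is reached when the libraries of the genotypes do not overlap. The study's methods call the libraries of a genotype biological replicates, but the labels do not say whether they came from separate plantings, so part of the spread between them may be technical.

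Contacts between ends of different chromosomes did not separate the genotypes on this scale. The mean over the 40 pairs of ends was 5.62 and 5.11 contacts per pair of bins in the 4XCol-0 libraries, against 5.45 and 5.27 in the Col-0 libraries (exact permutation p = 1). The libraries overlapped, and the log2 difference was 0.00. The mean over all pairs of bins of different chromosomes was 1.71 and 1.70 in 4XCol-0, against 1.60 and 1.53 in Col-0, and without overlap the log2 difference was 0.13. Relative to that shift the ends were lower in 4XCol-0. As a share of contacts between chromosomes, the log2 difference of the ends was -0.13, and the libraries did not overlap (exact permutation p = 0.333). The direction for the ends therefore depends on the scale, and both scales are given for the means over all ends. Contacts on a single chromosome are set against contacts between chromosomes on the share scale. The rise between chromosomes in 4XCol-0 therefore lowers all of them by the same amount there.

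Ends met each other more often than other parts of the arms did. The signal between ends was 3.37 and 3.12 times that between bins of the arm interior in the 4XCol-0 libraries, and 3.48 and 3.54 times in the Col-0 libraries. All 4 libraries showed it, and the exact sign-flip test gave p = 0.125, the smallest that 4 libraries allow. The ratio was lower in 4XCol-0 without overlap, with a log2 difference of -0.12 (exact permutation p = 0.333), which was -0.06 without 4XCol-0 replicate 2. Against the equally long windows next inward, the ratio was 2.14 and 2.06 in 4XCol-0 and 2.14 and 2.16 in Col-0, and here the libraries overlapped.

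The single pairs show where the genotypes differed. Segments were the 10 ends and windows of 20 bins between them, and a pair of segments was called by limma at a Benjamini-Hochberg adjusted p under 0.05 over all 6903 pairs. Limma called 0 of the 40 pairs of ends, while 67 of the 6903 segment pairs (0.971%) were called higher in 4XCol-0 and 0 lower. All 67 joined different chromosomes, where they were 1.23% of the pairs tested. The 67 calls depended on the libraries, since there were 0 without either 4XCol-0 library, 1003 without Col-0 replicate 1 and 606 without Col-0 replicate 2. At an unadjusted p under 0.05, limma gave 4 of the 40 pairs of ends higher and 1 lower, beside 31.2% of all segment pairs between chromosomes higher and 0.0551% lower. By overlap of the libraries alone, 6 of the 40 pairs were higher in 4XCol-0 and 2 were lower, beside 60.4% higher and 0.845% lower among the 5441 segment pairs between chromosomes. The median log2 difference was -0.01 over the 40 pairs of ends and 0.13 over the 5441. As a share of contacts between chromosomes, 4 of the 40 pairs were higher and 28 lower without overlap, beside 23.6% higher and 18.9% lower among all segment pairs. All 6 pairs that were higher had 4 left as a member, and so did all 4 on the share scale.

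**Figure D1:**
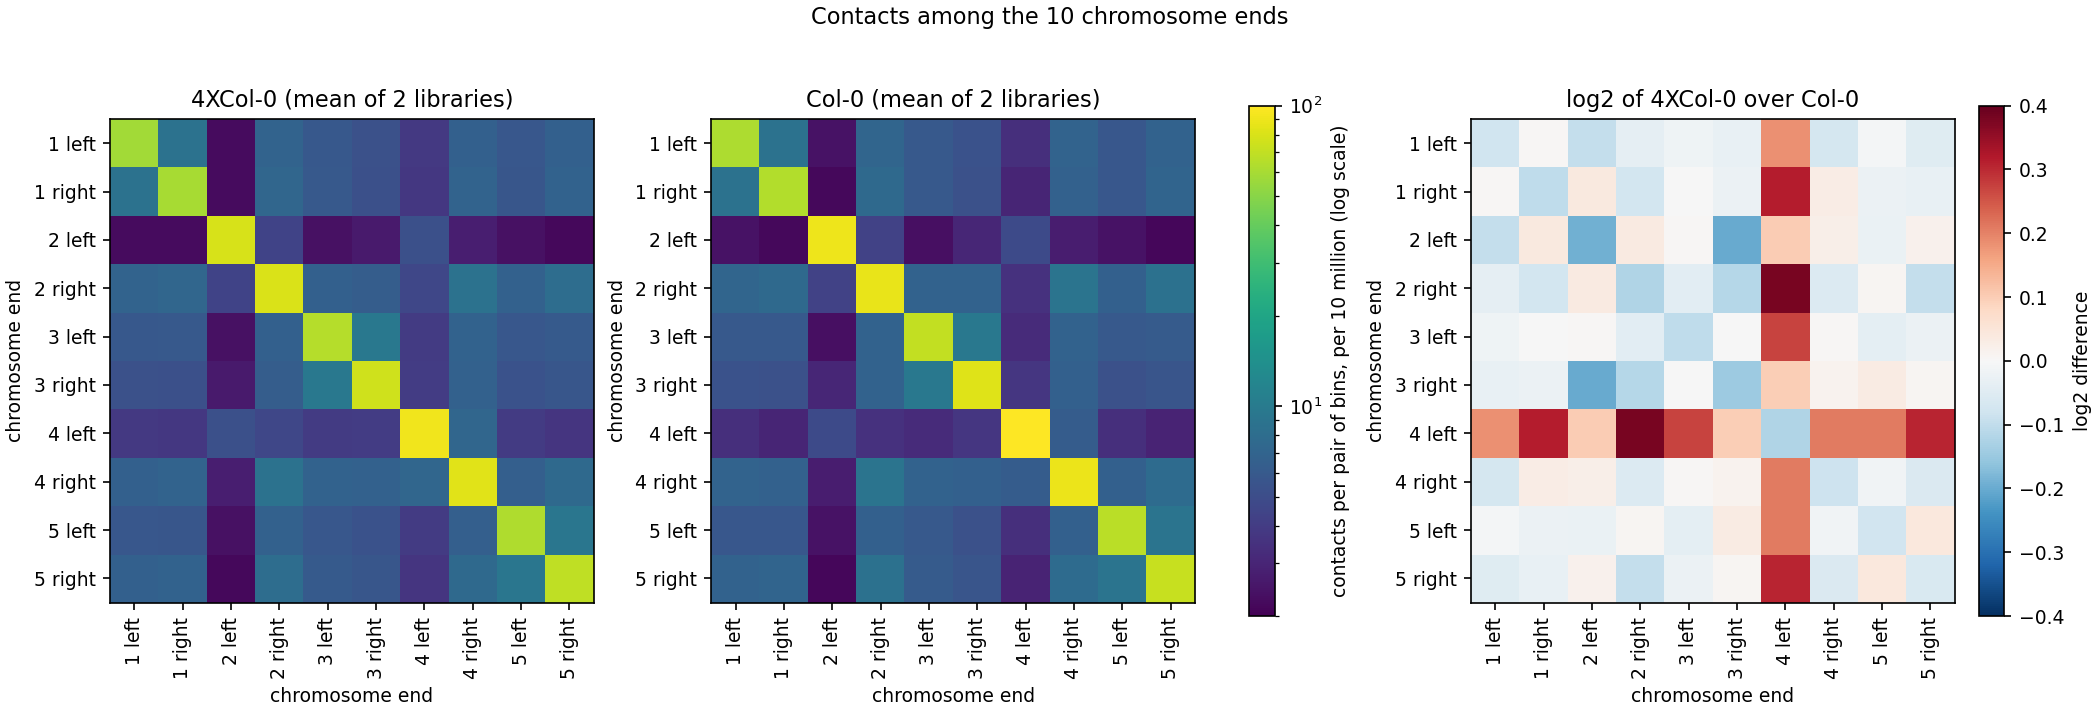
Mean contacts per pair of bins, per 10000000 contacts, between the 10 chromosome ends in 4XCol-0 (left map) and Col-0 (middle map) on a log color scale, and the log2 difference of 4XCol-0 over Col-0 (right map). In both genotypes 2 left and 4 left form dark stripes of few contacts, and the difference map has 1 red stripe, at 4 left, where all 8 pairs with other chromosomes lie above 0.

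The ends differed widely in how often they met other ends, and the order was nearly the same in both genotypes. The highest was 2 right, with 7.28 and 6.64 contacts per pair of bins in 4XCol-0 and 7.23 and 7.03 in Col-0. Next came 4 right, with 6.97 and 6.35 in 4XCol-0 and 6.85 and 6.65 in Col-0, which overlaps 2 right, so these neighbours did not separate. Then 5 right had 6.24 and 5.64 in 4XCol-0 and 6.19 and 5.84 in Col-0. Among the others away from the organizers, 1 left, 1 right, 3 left, 3 right and 5 left had means of 5.19 to 5.56 in 4XCol-0 and 5.26 to 5.56 in Col-0 and did not separate from each other. At the low end stood 4 left, with 4.32 and 3.80 in 4XCol-0 and 3.56 and 3.36 in Col-0, and 2 left, with 2.76 and 2.53 in 4XCol-0 and 2.83 and 2.52 in Col-0. Both lay below every other end in all 4 libraries. The strongest pair between chromosomes was 2 right with 4 right, at 9.18 and 8.25 in 4XCol-0 and 9.46 and 8.65 in Col-0.

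**Figure D2:**
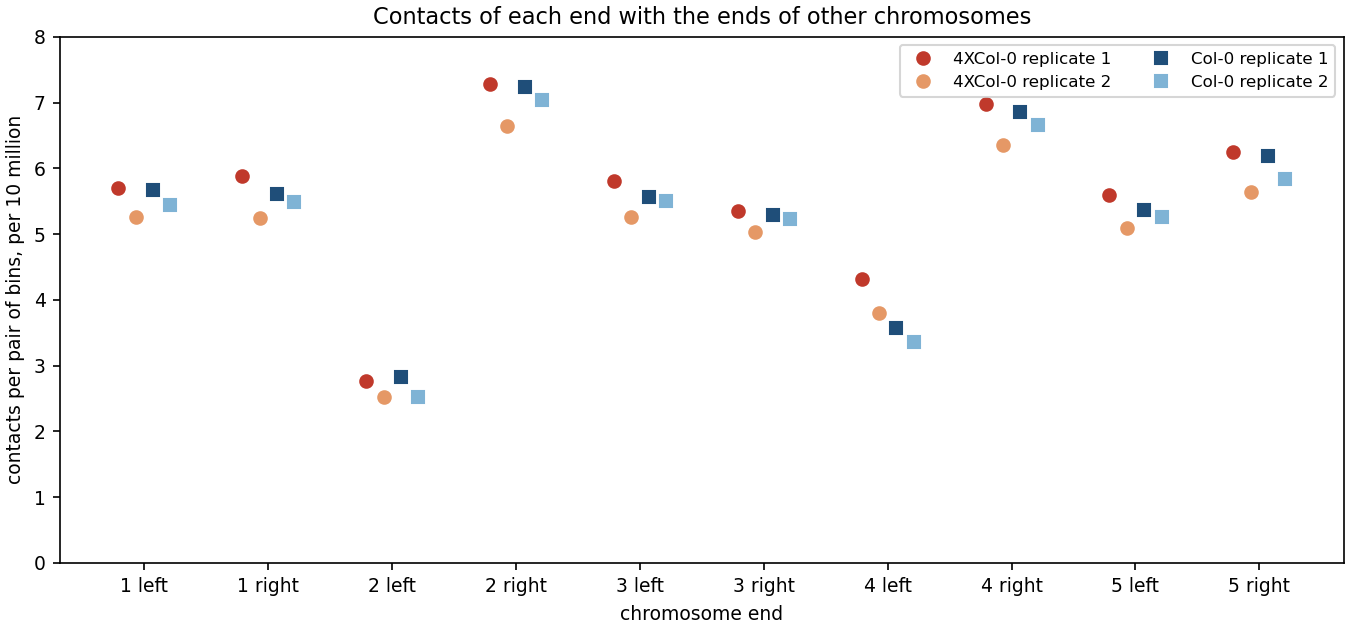
Contacts of each chromosome end with the ends of other chromosomes, in contacts per pair of bins per 10000000; each point is 1 Hi-C library, circles for 4XCol-0 and squares for Col-0. At 4 left both 4XCol-0 points (4.32 and 3.80) lie above both Col-0 points (3.56 and 3.36), and at the other 9 ends the genotypes overlap.

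The left end of chromosome 4 was the only end whose contacts with other ends separated the genotypes on the main scale. Its log2 difference was 0.23 (exact permutation p = 0.333), and it was 0.10 as a share of contacts between chromosomes, again without overlap. Without 4XCol-0 replicate 1 it was 0.13. On that share scale each of the other 9 ends was lower in 4XCol-0 without overlap, at -0.12 to -0.16. With 2 right, 4 left had 4.90 and 4.27 contacts per pair of bins in 4XCol-0 and 3.47 and 3.57 in Col-0. This was the largest difference of the 40 pairs, at a log2 difference of 0.38 (SE 0.09), and limma gave it an adjusted p of 0.066. With 1 right it had 4.02 and 3.49 in 4XCol-0 and 2.90 and 3.13 in Col-0 (log2 difference 0.31, SE 0.09, limma adjusted p 0.088). With 5 right it had 3.98 and 3.38 in 4XCol-0 and 3.12 and 2.83 in Col-0 (log2 difference 0.30, SE 0.10, limma adjusted p 0.104). The pairs with 3 left, 5 left and 1 left followed at 0.27, 0.21 and 0.18, and the libraries did not overlap in any of these 6. Thus 6 of the 8 pairs of 4 left with other chromosomes were higher, beside 60.4% of the 5441 segment pairs between chromosomes. As a share of contacts between chromosomes it was 4 of the 8, beside 23.6%. The pairs of 4 left with 2 left and with 3 right had log2 differences of 0.10 each, and their libraries overlapped.

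With regions other than ends, 4 left was near the background. With the bins of the arm interior of other chromosomes, 4 left had 1.96 and 1.88 contacts per pair of bins in 4XCol-0 and 1.80 and 1.69 in Col-0, so that the log2 difference was 0.14. With all bins of other chromosomes, ends included, the difference was 0.16. The median over 98 segments of other chromosomes, 8 of which were ends, was also 0.16. Of these 98, limma called 0 at an adjusted p under 0.05, and 32 higher and 1 lower at an unadjusted p under 0.05. Among the 32 were 4 of the 8 ends. Beside these stand the median of 0.13 and the 31.2% higher over all segment pairs between chromosomes. Within the end, the difference was largest near the tip. The outer 5 bins had 5.03 and 4.40 contacts with other ends in 4XCol-0 and 3.89 and 3.66 in Col-0 (log2 difference 0.32). Bins 6 to 10 had 4.90 and 4.23 in 4XCol-0 and 3.82 and 3.88 in Col-0, a difference of 0.24, and the bins further inward overlapped, at 0.15. Limma calls at 4 left appeared only with a Col-0 library left out. Without Col-0 replicate 1, the shallowest, 3 pairs of ends were called, 4 left with 5 right (0.38, adjusted p 0.026), with 2 right (0.36, adjusted p 0.027) and with 4 right on its own chromosome (0.30, adjusted p 0.044). Without Col-0 replicate 2, 2 pairs were called, 4 left with 2 right (0.40, adjusted p 0.018) and with 1 right (0.37, adjusted p 0.029). With either 4XCol-0 library left out, 0 pairs were called.

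The left end of chromosome 2, which also adjoins a nucleolus organizer, did not share this difference. Its log2 difference with other ends was -0.01, and it was below 0 also as a share of contacts between chromosomes, at -0.14. Over 97 segments of other chromosomes its median was 0.10, with 0 called by limma at an adjusted p under 0.05 and 30 higher and 1 lower at an unadjusted p under 0.05. Its strongest partner was 4 left, with 5.34 and 5.03 contacts per pair of bins in 4XCol-0 and 5.21 and 4.48 in Col-0. The 25 pairs of ends with neither member at an organizer had more, at 6.67 and 6.10 in 4XCol-0 and 6.59 and 6.43 in Col-0, in all 4 libraries (exact sign-flip p = 0.125, the smallest possible). Its pair with 3 right was 1 of the 2 that were lower in 4XCol-0 without overlap, at 2.70 and 2.58 in 4XCol-0 and 3.11 and 2.96 in Col-0 (log2 difference -0.20, SE 0.08, limma adjusted p 0.139). The other was 2 right with 3 right, at 6.46 and 6.28 in 4XCol-0 and 7.02 and 6.77 in Col-0 (-0.11, limma adjusted p 0.324).

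Contacts between ends were most frequent at the tips. Between the outermost bins, the 25 pairs in which neither bin lay beside a nucleolus organizer had 178.8 and 191.7 contacts per pair of bins in 4XCol-0 and 179.0 and 209.0 in Col-0. For the second bins the values were 45.8 and 43.0 in 4XCol-0 and 44.7 and 45.4 in Col-0, for bins 3 to 5 they were 15.6 and 14.1 in 4XCol-0 and 16.0 and 14.96 in Col-0, and for bins 11 to 19 they were 4.62 and 4.14 in 4XCol-0 and 4.47 and 4.24 in Col-0. At none of these distances did the genotypes separate in the balanced signal. The outermost bins on the right are cut short by the end of the sequence, to 9830 bases at 3 right and 48289 at 2 right, and their high values rest on the balancing as well as on the contacts. Unbalanced contacts of the 25 outermost pairs were 79.1 and 81.1 in 4XCol-0 and 81.5 and 88.2 in Col-0, which did not overlap (log2 difference -0.08, exact permutation p = 0.333).

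Where 1 of the 2 outermost bins lay beside a nucleolus organizer, contacts were far fewer. These 14 pairs had 13.3 and 10.9 contacts per pair of bins in 4XCol-0 and 7.15 and 8.44 in Col-0. In log2 units the pairs with neither bin at an organizer lay above them by 3.94 in 4XCol-0 and by 4.64 in Col-0, in all 4 libraries (exact sign-flip p = 0.125, the smallest possible). By bins 11 to 19 this gap had narrowed to 0.88 in both genotypes. The 14 pairs themselves were higher in 4XCol-0 without overlap, by 0.64 on the log2 scale (exact permutation p = 0.333), and by 0.96 with unbalanced contacts, an alternative added after seeing the data. These values rest on few contacts, 53 and 155 in the 4XCol-0 libraries and 9 and 80 in the Col-0 libraries. The 9 contacts of Col-0 replicate 1 have an exact Poisson 95% interval of 4.12 to 17.1, which covers counting error only, and without that library the difference was 0.52. The difference lay at the 4 left tip, whose 7 pairs averaged 23.5 and 16.1 in 4XCol-0 and 10.6 and 11.6 in Col-0. The 7 pairs of the 2 left tip averaged 3.09 and 5.76 in 4XCol-0 and 3.65 and 5.28 in Col-0, from 1 to 17 contacts per library, and overlapped. In bins 3 to 5 the class was again higher without overlap, at 6.16 and 5.23 in 4XCol-0 and 4.41 and 4.71 in Col-0 (0.32), while the second bins overlapped. The single pair of organizer tips, 2 left with 4 left, had 1 and 12 contacts in the 4XCol-0 libraries and 1 and 6 in the Col-0 libraries, too few to compare.

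**Figure D3:**
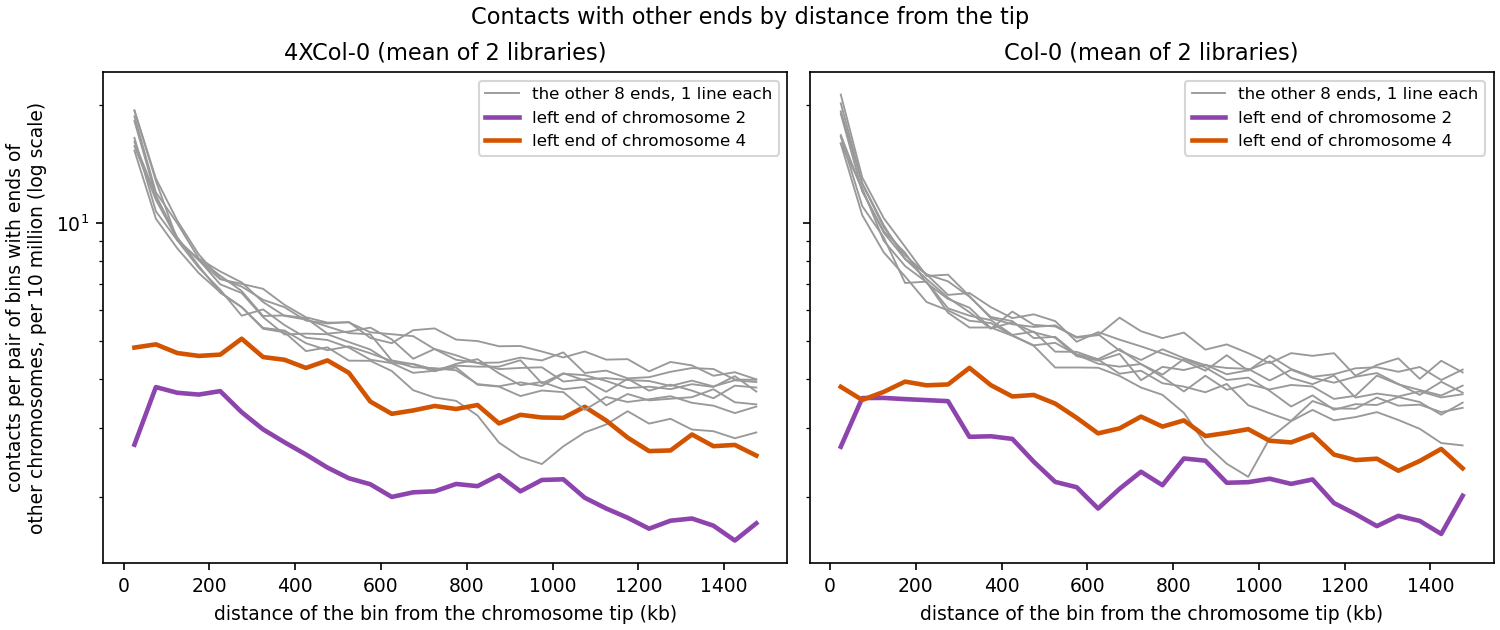
Contacts of each bin with ends of other chromosomes, per pair of bins and 10000000 contacts (log scale), against the distance of the bin from its chromosome tip in kb, as means of 2 libraries in 4XCol-0 (left panel) and Col-0 (right panel). The 8 other ends climb toward the tip, while 2 left and 4 left stay low there, and 4 left lies higher in 4XCol-0 (5.03 and 4.40 over its outer 5 bins) than in Col-0 (3.89 and 3.66).

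Contacts inside an end were fewer in 4XCol-0. The mean over pairs of different bins of the same end was 67.3 and 70.8 in 4XCol-0 and 71.0 and 77.6 in Col-0, so that the log2 difference was -0.10 without overlap (exact permutation p = 0.333). It was -0.04 without Col-0 replicate 2 and -0.17 without Col-0 replicate 1, and the libraries overlapped over the outer 10 bins and with the outermost bin left out (exact permutation p = 0.667 each). It was below 0 in 10 of 10 ends and not overlapping in 5 of 10, beside 27.4% of the 117 segments of the genome that were lower without overlap and 0 that were higher. As a share of contacts between chromosomes, which includes the rise between chromosomes, the log2 difference was -0.23. On that scale 10 of 10 ends were lower without overlap, beside 91.5% of the 117 segments. The largest difference was at 2 left, with 77.1 and 81.4 contacts per pair of bins in 4XCol-0 and 87.6 and 93.5 in Col-0 (-0.19). Next was 3 right, with 71.2 and 79.0 in 4XCol-0 and 79.5 and 86.7 in Col-0 (-0.15). Limma called 0 of the 10 ends, and 1 was lower at an unadjusted p under 0.05. The ends did not stand apart from their neighbours in this, since the windows next inward had 60.7 and 64.7 in 4XCol-0 and 63.7 and 70.1 in Col-0 (-0.09, overlapping, and -0.22 without overlap on the share scale). The libraries of the genotypes separated only at larger distances. At 50 kb and 100 kb they overlapped, with log2 differences of -0.06 and -0.08. Each 4XCol-0 library there still lay below the Col-0 library of the same number. At 450 kb the libraries had 35.1 and 35.6 in 4XCol-0 and 39.9 and 40.5 in Col-0 (-0.18). From 150 kb to 900 kb every distance was lower without overlap, by -0.09 to -0.20. The windows next inward were likewise lower without overlap at every distance from 200 kb to 900 kb, by -0.09 to -0.13.

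The opposite ends of a chromosome met each other more often than ends of different chromosomes did, at 8.58 and 7.94 in 4XCol-0 and 8.25 and 7.86 in Col-0, and the genotypes overlapped. As a share of contacts between chromosomes they were lower in 4XCol-0 without overlap, at -0.09 (exact permutation p = 0.333), as were 4 of the 5 single chromosomes. That scale includes the rise between chromosomes, so these values do not show a drop of the contacts between opposite ends themselves. The share lower among other pairs of segments of the same chromosome was not counted. On the main scale only chromosome 4 separated the genotypes. Its ends had 7.60 and 6.88 contacts per pair of bins in 4XCol-0 and 6.68 and 5.86 in Col-0, so that the log2 difference was 0.21 (SE 0.09, limma adjusted p 0.185), and the libraries overlapped as a share of contacts between chromosomes, at 0.08. The ends of chromosome 2 met least, at 4.58 and 4.23 in 4XCol-0 and 4.46 and 4.14 in Col-0.

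With the pericentromeres, the heterochromatin around the centromeres, ends had few contacts. Between chromosomes the mean was 1.26 and 1.40 in 4XCol-0 and 1.19 and 1.20 in Col-0, so that the log2 difference was 0.15 without overlap (exact permutation p = 0.333). It was 0.08 without 4XCol-0 replicate 2, and as a share of contacts between chromosomes it was 0.03 and the libraries overlapped (exact permutation p = 1). The bins of the arm interior showed 1.31 and 1.40 in 4XCol-0 and 1.20 and 1.14 in Col-0, at 0.22 and, as a share, 0.09 without overlap. The ends at the organizers met pericentromeres of other chromosomes more often than the other 8 ends in both genotypes, at 1.70 and 1.85 in 4XCol-0 and 1.60 and 1.58 in Col-0, against 1.17 and 1.31 in 4XCol-0 and 1.11 and 1.12 in Col-0. With the pericentromere of their own chromosome, ends had 3.32 and 3.42 in 4XCol-0 and 3.48 and 3.54 in Col-0, lower without overlap (-0.06). As a share the difference was -0.18, also without overlap, which includes the rise between chromosomes.

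Loose and compact domains were read from the sign of the first eigenvector of the contact correlation along each chromosome, set so that loose bins are gene-rich. Of the 240 end bins, 93.8% and 96.3% were loose in the 4XCol-0 libraries and 77.1% and 76.3% in the Col-0 libraries. In the arm interior the share was 65.5% and 64.8% in 4XCol-0 and 72.8% and 68.4% in Col-0. In all, 26 end bins were loose in both 4XCol-0 libraries and compact in both Col-0 libraries, 12 at 4 left, 12 at 3 right and 2 at 5 right, and 0 the other way. In the arm interior 32 of 1761 bins were loose only in 4XCol-0 and 82 only in Col-0, so that over all 2001 bins outside the pericentromeres the shares were 2.9% and 4.1%. At 4 left 94.7% and 78.9% of the 19 bins were loose in 4XCol-0, against 15.8% and 0% in Col-0. The calls depended on the pericentromeres, which had been left out. With them included, 96.3% and 95.8% of end bins were loose in 4XCol-0 and 88.8% and 90.4% in Col-0, and 5 bins differed in both libraries, of which 1 lay at 4 left, beside 6 loose only in 4XCol-0 and 21 only in Col-0 in the arm interior.

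H3K4me3 marks the start of transcribed genes, and H3K27me3, set by Polycomb proteins, covers genes kept silent in a tissue. Both were measured as the percent of bases under peaks. Ends carried more H3K4me3 than the arm interior, with 13.3% and 14.9% of bases in 4XCol-0 and 13.6% and 11.9% in Col-0, against 9.64% and 10.7% of the arm interior in 4XCol-0 and 9.62% and 8.39% in Col-0. They carried less H3K27me3, with 10.7% and 10.52% of bases in 4XCol-0 and 10.4% and 10.3% in Col-0, against 14.7% and 14.2% of the arm interior in 4XCol-0 and 13.8% and 13.5% in Col-0. The equally long windows next inward lay between them, with 11.3% and 12.49% of bases under H3K4me3 in 4XCol-0 and 11.3% and 9.85% in Col-0, and close to the ends in H3K27me3, with 11.4% and 11.2% in 4XCol-0 and 10.97% and 10.6% in Col-0. The differences of the ends from the arm interior, and from those windows, had the same sign in all 4 libraries of the mark (exact sign-flip p = 0.125 each, the smallest possible), but for H3K27me3 the ends lay only 0.37 to 0.71 percentage points below the windows. Anti-H3 peaks covered 10.1% of ends in 4XCol-0 and 9.77% in Col-0, against 8.22% of the arm interior in 4XCol-0 and 7.93% in Col-0. They covered more of the pericentromeres, at 15.2% in 4XCol-0 and 16.8% in Col-0. By number, 10.4% of anti-H3 peaks in 4XCol-0 and 10.3% in Col-0 lay in ends, which are 240 of the 2385 bins.

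Among the 10 ends, those at the organizers stood out here too, at levels near those of the arm interior. H3K27me3 was highest at 4 left, with 16.3% and 15.9% of bases in 4XCol-0 and 15.1% and 15.1% in Col-0, and next at 2 left, with 14.9% and 14.4% in 4XCol-0 and 14.2% and 14.1% in Col-0. The other 8 ends ranged from 7.66% (5 right) to 11.2% (3 left) as 4XCol-0 means. On the same measure the arm interior had 14.5% of bases under H3K27me3. The windows next inward ranged from 6.19% (beside 3 left) to 14.4% (beside 5 left). H3K4me3 was lowest at 2 left, with 8.44% and 9.52% in 4XCol-0 and 8.70% and 7.49% in Col-0, and next at 4 left, with 10.6% and 12.4% in 4XCol-0 and 10.8% and 9.25% in Col-0. It was highest at 5 right, with 16.0% and 17.5% in 4XCol-0 and 16.3% and 14.3% in Col-0. The H3K4me3 coverage of the arm interior lay between 2 left and 4 left in every library, at 9.64% and 10.7% in 4XCol-0 and 9.62% and 8.39% in Col-0.

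**Figure D4:**
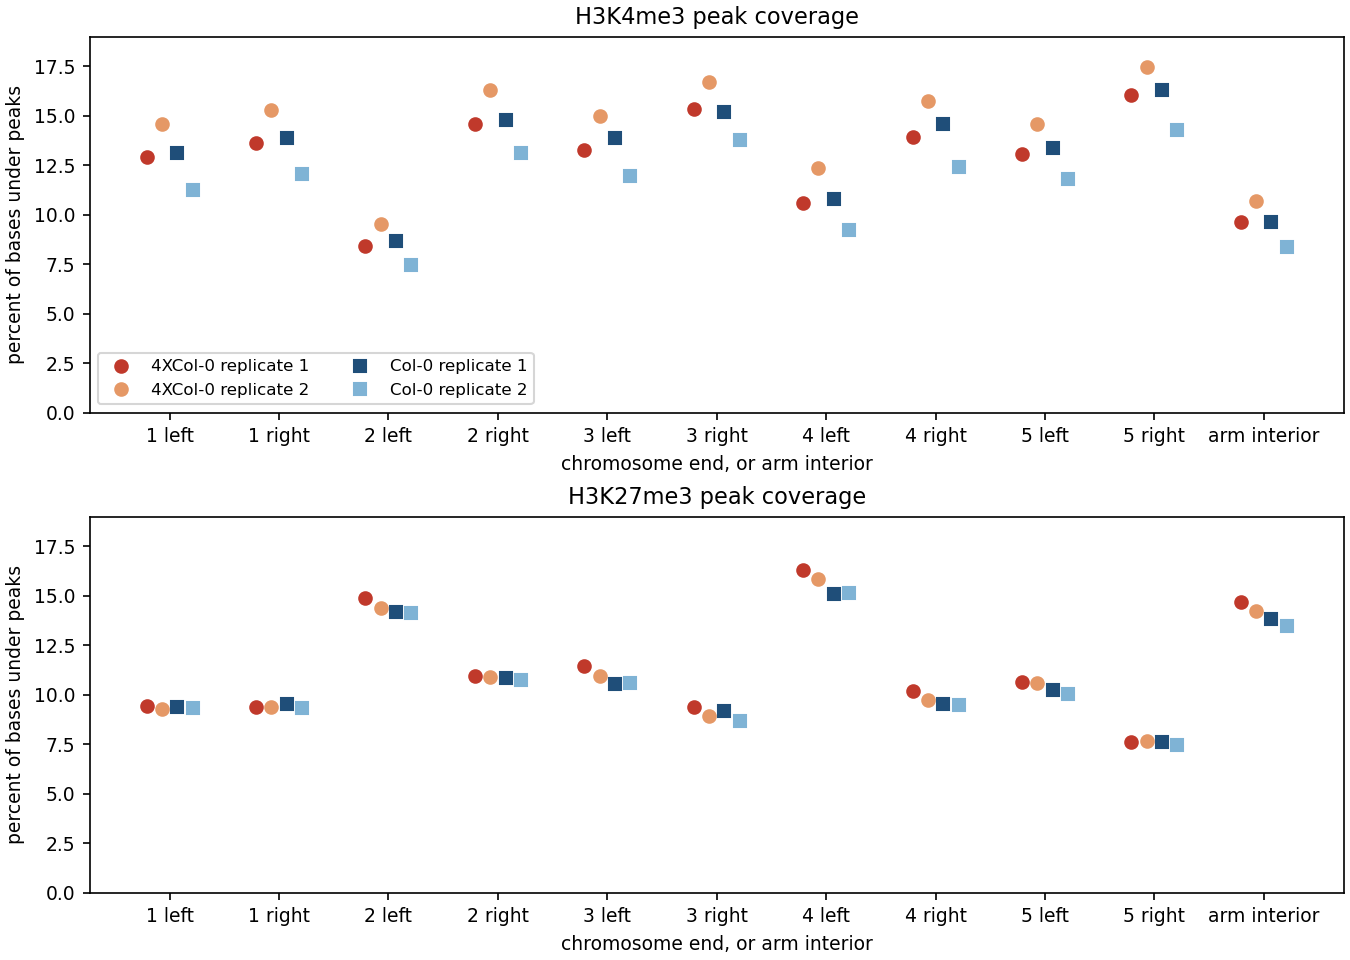
Percent of bases under H3K4me3 peaks (upper panel) and H3K27me3 peaks (lower panel) in each chromosome end and in the arm interior; each point is 1 ChIP-seq library, circles for 4XCol-0 and squares for Col-0. Among the 10 ends, the 2 at nucleolus organizers, 2 left and 4 left, are lowest in H3K4me3 and highest in H3K27me3 in every library. The arm interior lies between these 2 ends in H3K4me3 and below 2 left in H3K27me3.

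Between the genotypes, no end bin passed the test for either mark. Limma called 0 of 240 end bins for H3K4me3 and 0 of 229 for H3K27me3, beside 0 of 2165 and 0 of 2050 bins with peaks in the whole genome. At an unadjusted p under 0.05, 28 end bins were higher in 4XCol-0 and 0 lower for H3K4me3, beside 9.52% higher in the genome, and 21 were higher and 5 lower for H3K27me3, beside 12.7% higher and 1.46% lower. The mean H3K27me3 coverage of ends was 0.30 percentage points higher in 4XCol-0 without overlap (0.19 without 4XCol-0 replicate 1), and the arm interior was 0.80 points higher. At 4 left the difference was 0.96 points (exact permutation p = 0.333). With peaks at a q-value of 1e-05 or less, the difference over all ends changed sign, to -0.03 points. The H3K4me3 libraries of a genotype differed more from each other than the genotypes did. The H3K27me3 difference with the smallest p lay at 4 left, in the bin from base 600001 to base 650000 of chromosome 4, at 5.77 points (SE 0.70, limma adjusted p 0.176).

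Of the 8 ends away from the organizers, 3 had a peak of either mark within 500 bases of the assembled tip in every library. At 3 right an H3K4me3 peak ended on the last base of the chromosome in all 4 libraries. An anti-H3 peak ended on that same base in both genotypes. At 1 right the outermost H3K27me3 peak lay 31 to 93 bases from the tip, and at 5 right 103 to 428 bases. At 2 right, 1 left, 3 left, 4 right and 5 left the outermost H3K4me3 peak lay 1398 to 6390 bases from the tip. The outermost H3K27me3 peak of these 5 ends lay 4258 bases (3 left) to 58264 bases (4 right) from the tip, and at 3 right it lay 99663 to 99766 bases inward. At 4 left the outermost H3K4me3 peak began about 10 kb inward in every library, at bases 9989 and 10066 in 4XCol-0 and 10048 and 10243 in Col-0, and the outermost H3K27me3 peak began at bases 32006 and 32257 in 4XCol-0 and 32153 and 32195 in Col-0.

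A larger share of genes was expressed in ends than in the arm interior or among all nuclear genes. Of the 3661 genes in ends, 2563 (70.0%) reached 1 FPKM in either genotype, against 60.3% in the arm interior and 55.1% of all nuclear genes. The windows next inward are not set beside these shares. Protein-coding genes were 3344 of the 3661 in ends and 26697 of the 33278 nuclear genes. The part of this mix in the higher share was not tested. The share was lowest at 2 left, with 56.8%, and at 4 left, with 63.0%, and highest at 2 right, with 77.2%. Since each genotype has 1 pooled value, there is no error and no test, and a gene counts as different at 2-fold or more on the scale of log2(FPKM + 1). In bulk tissue, fewer cells of a type and less RNA per cell cannot be told apart. In ends 26 genes (0.710%) were higher in 4XCol-0 and 13 (0.355%) lower, beside 0.604% higher and 0.4% lower among all nuclear genes, so the share in ends was near the background. The median log2 ratio of expressed genes was 0.06 in ends and 0.08 over all. No end held more than 4 genes higher or 3 lower, and 4 left, whose contacts differed most, held 1 of each.

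Of the genes named by rule, the 5 with the largest ratios included both morning genes of the circadian clock. LHY, a MYB transcription factor in the outermost bin of 1 left, had 6.10 FPKM in 4XCol-0 and 1.55 in Col-0 (log2 ratio 1.48). Its partner CCA1, in the tenth bin of 2 right, had 16.6 FPKM in 4XCol-0 and 6.31 in Col-0 (1.27). H3K4me3 covered 15.1% and 11.9% of the CCA1 gene in 4XCol-0 and 5.74% and 6.26% in Col-0, and 19.2% and 20.01% of LHY in 4XCol-0 and 12.4% and 5.39% in Col-0. PRR9, a repressor of both in the clock, lay near CCA1 and had 4.75 FPKM in 4XCol-0 and 4.01 in Col-0 (0.20). AT4G37820 had 5.71 FPKM in 4XCol-0 and 1.75 in Col-0. AT5G04238 had 7.45 FPKM and AT1G79170 had 1.79 FPKM in 4XCol-0, and both are listed at 0 in Col-0, so no fold is given. Over AT1G79170 H3K27me3 peaks covered 0% in both 4XCol-0 libraries and 48.3% and 82.3% in the Col-0 libraries. No end gene of at least 1 kb passed the rule for a gain or a loss of H3K27me3 over the gene body, beside 0.0277% of such genes that lost it in the genome.

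The 5 with the lowest ratios were AT2G01422, MIR838, PAP14, AT5G03545 and RNS1. AT2G01422, a non-coding RNA in the fourth bin of 2 left, had 0.210 FPKM in 4XCol-0 and 56.4 in Col-0 (-5.57). MIR838 is listed at 0 in 4XCol-0 and at 11.4 FPKM in Col-0. It lies inside AT1G01040 on the same strand, which had 2.89 FPKM in both genotypes, so its reads are uncertain. PAP14, a purple acid phosphatase, had 6.91 FPKM in 4XCol-0 and 34.1 in Col-0 (-2.15), and H3K27me3 covered 87.6% and 95.1% of it in 4XCol-0 and 84.4% and 80.3% in Col-0. AT5G03545 had 339.9 FPKM in 4XCol-0 and 1292 in Col-0 (-1.92). RNS1, a secreted ribonuclease that is induced when phosphate is short, had 2.29 FPKM in 4XCol-0 and 10.7 in Col-0 (-1.83).

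The outermost expressed gene of each end stayed within 2-fold at all 10 ends. The closest to a tip was AT3G63540 at 3 right, 27 bases from the last base, with 930.2 FPKM in 4XCol-0 and 988.0 in Col-0. At 2 left it was AT2G01010, an 18S ribosomal RNA gene, with 426.6 FPKM in 4XCol-0 and 571.9 in Col-0 (-0.42), and this value is uncertain because its repeated copies share reads. At 4 left it was BRCA2(IV), a copy of the recombination gene BRCA2, with 1.18 FPKM in 4XCol-0 and 1.08 in Col-0. The largest ratio among the 10 was that of AGP3 at 4 right, an arabinogalactan protein gene of roots, with 31.7 FPKM in 4XCol-0 and 49.8 in Col-0 (-0.63).

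AGP3 is also 1 of 4 root markers, which should be low in aerial parts. All 4 were detected and lower in 4XCol-0, with a summed level of 61.8 FPKM in 4XCol-0 and 97.5 in Col-0. Of these sums AGP3 held 31.7 in 4XCol-0 and 49.8 in Col-0, and its marks differed from those of the others. H3K4me3 covered 73.3% and 83.0% of AGP3 in 4XCol-0 and 86.9% and 70.7% in Col-0, and H3K27me3 covered 0%. The other root markers, SHV2, EXPA7 and PRP3, had 0% under H3K4me3 and 74.2% to 100% under H3K27me3. Of the 4 shoot markers, 3 were abundant and lower in 4XCol-0, with a sum of 16269 FPKM in 4XCol-0 and 18107 in Col-0, and CAB1 is listed at 0 in both. The part of root cells in the value of AGP3, or in that of any other gene lower in 4XCol-0, was not tested.

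No flowering or telomere gene of the lists passed 2-fold. FRI, an activator of the flowering repressor FLC, lies in the sixth bin of 4 left and had 4.33 FPKM in 4XCol-0 and 3.44 in Col-0 (0.26). The repressor AGL31 (MAF2) at 5 right had 26.99 FPKM in 4XCol-0 and 17.4 in Col-0 (0.60), and its neighbours MAF3, MAF4 and MAF5 had log2 ratios of 0.35, 0.16 and 0.43. MAF5 was low, at 0.799 FPKM in 4XCol-0 and 0.340 in Col-0, which is more than 2-fold in plain FPKM. TRB2, which binds the telomere repeat, lies in the outermost bin of 5 right and had 8.00 FPKM in 4XCol-0 and 7.64 in Col-0. Of 16 telomere genes across the genome, 0 passed 2-fold on the log2(FPKM + 1) scale. Their median log2 ratio was 0.13, beside 0.08 over all expressed genes. They ranged from -0.52 for STN1, which protects the telomere, to 0.68 for FAS1, a subunit of the histone chaperone CAF-1. FAS1 was also low, at 1.31 FPKM in 4XCol-0 and 0.436 in Col-0, more than 2-fold in plain FPKM.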

How the data were processed

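For Hi-C, the authors aligned HindIII libraries to TAIR10, processed them with HiC-Pro and Juicer and deposited KR-balanced contact signal between bins of 50 kb, 1 matrix per library. The authors mapped ChIP-seq reads by BWA, ran Macs2 with anti-H3 as its control and deposited the fold enrichment of each peak, a ratio, and the −log10 of its p-value and q-value. The deposited names of the H3K4me3 peak lists carry words other than their replicate labels, so these lists may not be independent. For RNA, the authors used STAR and featureCounts and deposited 1 FPKM value per gene and genotype; how replicates were combined is not given in the sources used here. Per the labels, R 3.4.1 was also used. Input libraries were not used here. FPKM values and peak lists give no depth, so their precision is unknown.

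Whole contacts were recovered from the signal by dividing out bin factors (100% of pairs within 0.05 of a whole number), and gave each library's depth. Pairs of segments with at least 50 mean contacts were tested as log2(value + 0.01), and bins as percent covered by peaks, with limma 3.58.1 in R 4.3.3 and Benjamini-Hochberg adjustment over the whole table. Single values were compared with exact two-sided permutation tests over libraries. Pericentromeres were runs of bins whose running mean of coding genes over 21 bins was under 50% of the chromosome's median. Of 33557 listed genes, 279 organelle genes, all at 0, were left out, and 32820 of 33278 nuclear genes matched TAIR10.1 names. FPKM values were compared as log2(FPKM + 1), which understates changes of low genes. Named genes were the 5 largest and 5 smallest log2 ratios in ends among genes of at least 1 FPKM, the outermost expressed gene of each end, clock and flowering landmarks, 16 telomere genes, and genes over 1 kb with H3K27me3 over 50% of the body in both libraries of one genotype and 10% or less in the other. The members and lists were chosen with earlier results of these data known. The steps were tested on simulated data. Alternatives were other scalings, balancing, depth, sizes of ends, peak thresholds, pseudocounts, a replicate block and leaving out each library.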

Additional observations from a re-analysis of the deposited data

How the results depend on the processing

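No limit of detection was measured for contacts, exact tests with 2 libraries per genotype cannot go below p = 0.333, and pooled FPKM values have no error. The log2 difference of contacts between ends of different chromosomes changed sign with the outermost bins left out (0.011) and with unbalanced contacts (0.00062), and ran from -0.069 to 0.068 with 1 library left out. That of opposite ends changed sign as a share of contacts between chromosomes (-0.089) and ran from -0.020 to 0.091 with 1 library left out. That of 2 left with other ends was 0.10 over the outer 10 bins and ran from -0.098 to 0.069 with 1 library left out. On the share scale, 4 left with 2 left gave -0.024 and with 3 right -0.027, and 4 left with 2 left ran from -0.0073 to 0.21 with 1 library left out. With 1 library left out, limma called 0 to 3 pairs of ends, 0 to 1003 segment pairs higher and 0 to 26 lower. It called 0 segment pairs on the share scale, with contacts inside bins left out of the total, with unbalanced contacts, at equal depth, with the outer 10 bins, with windows of 10 bins and with the replicate block. Including pericentromeres reduced the excess of loose end bins in 4XCol-0 from 18.3 to 6.46 percentage points. For H3K4me3, 1 end bin was called with the replicate block and 122 with crossed numbers, an alternative chosen after seeing the data. For H3K27me3, 1 end bin was called on the log2 scale of coverage, and a stricter q-value of 1e-05 turned the mean difference to -0.027. A pseudocount of 0.1 gave 89 end genes higher and 55 lower at 2-fold, and the outer 10 bins held 9 higher and 7 lower. Same-numbered libraries deviated together at r = 0.18 (Hi-C segment pairs), -0.55 (H3K4me3 bins) and 0.10 (H3K27me3 bins). In Hi-C, replicate 1 was the shallower library of both genotypes, and whether same-numbered libraries shared a batch was not tested. The block changed no other call.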

Other observations

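The 13 end genes lower in 4XCol-0 also held the following 3, which were picked out after their values were seen, lie in 2 different ends, and have 1 pooled value per genotype. No list of genes was tested here, and the 4 root markers, lower in 4XCol-0 as well, summed to 61.8 FPKM in 4XCol-0 and 97.5 in Col-0. SRG3, a glycerophosphodiester phosphodiesterase gene at 3 left, had 84.4 FPKM in 4XCol-0 and 250.5 in Col-0. NPC4, a phospholipase C gene at 3 left, had 2.00 FPKM in 4XCol-0 and 7.77 in Col-0. SQD2, which makes sulfolipid, lay in the second bin of 5 left and had 55.6 FPKM in 4XCol-0 and 144.8 in Col-0.

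Of the 26 end genes higher in 4XCol-0, the following were also picked out after their values were seen, with no list tested. HFR1 at 1 left, a bHLH protein of shade responses, had 117.6 FPKM in 4XCol-0 and 55.9 in Col-0, with H3K4me3 peaks over 44.4% and 58.2% of the gene in 4XCol-0 and 9.64% and 9.78% in Col-0. H3K27me3 peaks also covered HFR1, over 73.8% and 62.5% in 4XCol-0 and 87.1% and 86.9% in Col-0. PIL1 at 2 right had 3.76 FPKM in 4XCol-0 and 1.32 in Col-0, and COL2 at 3 left had 22.7 in 4XCol-0 and 9.87 in Col-0. The homeobox genes HB-7 at 2 right and HB-12 at 3 right, which respond to drought, had 28.4 and 16.5 FPKM in 4XCol-0 and 12.0 and 6.33 in Col-0. LINC4, which encodes a protein of the nuclear periphery, had 5.06 FPKM in 4XCol-0 and 1.87 in Col-0.

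The promoter motif AAACCCT, which resembles 1 turn of the telomere repeat, was searched on both strands from 250 bases before to 50 bases after each gene start. It occurred in 13.4% of 3344 promoters in ends and in 13.2% of 26697 promoters of nuclear genes. Among the ends the share was lowest at 2 right (9.76%) and highest at 4 left (18.1%).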
